A study of Mus musculus with 18 samples.

Results

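The collagen genes of mouse fat were compared between adipocytes isolated from inguinal white adipose tissue (iWAT), adipocytes isolated from epididymal white adipose tissue (eWAT) and whole brown adipose tissue (BAT). The members are all genes with an Entrez gene identifier whose symbol is Col, a type number, the letter a and a chain number, such as Col1a1. There were 42 such genes, each with 1 row, of 52093 symbols in the deposited tables. All 42 were in the GENCODE vM1 annotation under the same symbol.

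Collagens are extracellular matrix proteins in which chains wind around each other into a helix, and the helix requires glycine at regular positions along each chain. Types I, III and V form the banded fibrils of connective tissue, type IV forms the sheet of the basement membrane, and type VI forms beaded filaments between the cell surface and the fibrils. Every mature adipocyte is wrapped in a basement membrane, and the surrounding fibrils of fat depots are made by adipocytes and by stromal cells.

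All mice were wild-type C57BL/6 males, 16 weeks old, that had eaten a high-fat diet (HFD) over 12 weeks, with no genetic change and no drug. Labels and methods name different substrains, C57BL/6J and C57BL/6NTac. Each tissue was represented by 6 samples, here called replicates by the number in the sample title: 1, 2, 3, 4, 5 and 16 for both white depots and 1, 2, 5, 16, 17 and 18 for BAT. The titles and the design give the HFD, whereas a treatment field of the labels gives regular chow for all 18 samples, and no chow-fed group was analysed here. White adipocytes were floated from collagenase-digested tissue, whereas BAT was frozen whole, so BAT holds every cell type of the depot and the white samples hold mature adipocytes with any cells carried along.

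Reads per gene on the mm9 mouse genome were deposited as counts and as RPKM, the count divided by row length and by the library total. Reads on the rows numbered 26768529 to 30166441 per sample in iWAT adipocytes, 24655056 to 37438994 in those of eWAT and 27402247 to 42518483 in BAT. Levels below are RPKM. Fold changes are from edgeR on the counts with TMM scaling, which centred the median log2 difference of all genes at 0.01 between iWAT adipocytes and BAT and at -0.02 between eWAT adipocytes and BAT. Without that scaling the same medians were 0.87 and 0.89, so RPKM values make a white sample look higher against BAT than the fitted fold does. In bulk samples, fewer cells of a type and less RNA per cell cannot be told apart. For BAT, the tissue, its isolation as whole tissue and its sequencing lanes cannot be told apart either, because no BAT sample shared a lane with a white sample.

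The labelled tissues matched their defining markers. Ucp1, the uncoupling protein of brown fat, averaged 1860 RPKM in BAT, 2.26 in iWAT adipocytes and 0.261 in eWAT adipocytes. Genes of other cells were present at depot-specific levels. The summed RPKM of 4 macrophage markers (Cd68, Emr1, Csf1r and Itgam) ranged from 666 to 1000 in eWAT adipocytes, 139 to 259 in iWAT adipocytes and 3.98 to 7.67 in BAT. Sums of 4 endothelial markers (Cdh5, Pecam1, Tek and Cldn5) ranged from 172 to 487 in iWAT adipocytes, 57.5 to 142 in those of eWAT and 63.2 to 163 in BAT. Within eWAT adipocytes, replicates 1 and 3 had the lowest sums of 4 adipocyte markers (Adipoq, Plin1, Lep and Cidec; 703 and 517, against 1300 to 1810 in the other 4) and the highest macrophage sums (977 and 1000, against 666 to 787). Lymphocyte markers stayed at sums of at most 1.10 RPKM. Fibroblast and progenitor markers had no common direction for iWAT adipocytes against BAT. By the edgeR fit, log2 fold changes were 4.27 for Dpt and 1.06 for Cd34, but -0.89 for Pdgfra, -1.18 for Dpp4 and -1.94 for Pi16. Mfap5 (-0.48) missed an adjusted p of 0.05.

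The glycine rule of the collagen helix can be read in the exons. In GENCODE vM1, 62.1% of the 1952 coding exons of the 42 genes had a length that is a multiple of 9 bases, the length of 1 glycine-X-Y unit, against 14.0% of the coding exons of all other genes. Exons of exactly 54 bases made up 23.9% of the collagen coding exons and 0.423% of the others. The genes had from 2 coding exons (Col8a1, Col8a2 and Col10a1) to 118 (Col7a1), with a median of 47. The exons below are shown because they carry the same repeat in genes with opposite tissue patterns, described later. They are the first 54-base coding exons of Col1a1 and Col3a1, high in white adipocytes, and of Col27a1, high in BAT, that begin with a whole glycine codon. Capitals mark the glycine codon (GGN) that opens each unit of 9 bases, and glycine codons elsewhere in a unit are in lower case. The exons lie on the plus strand of NCBIM37 (mm9) at chr11:94801218-94801271 (coding exon 8 of 51), chr1:45382205-45382258 (coding exon 6 of 51) and chr4:62892826-62892879 (coding exon 4 of 61), all within the coding sequence.
Col1a1: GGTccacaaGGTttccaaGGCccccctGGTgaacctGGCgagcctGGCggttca
Col3a1: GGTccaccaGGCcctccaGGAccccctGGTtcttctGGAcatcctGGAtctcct
Col27a1: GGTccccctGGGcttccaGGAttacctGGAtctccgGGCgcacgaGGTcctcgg
Exons of this kind numbered 21 in Col1a1, 24 in Col3a1 and 32 in Col27a1.

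Of the 42 collagen genes, 20 reached a mean of at least 1 RPKM in some tissue, 17 in iWAT adipocytes, 18 in those of eWAT and 15 in BAT. A common set of 14 reached it in all 3 tissues, made up of the chains of types I, III and V, Col6a1, Col6a2, Col6a3, Col4a1, Col4a2, Col12a1, Col15a1 and Col18a1. At the other end, 4 genes had at most 3 reads in every sample: Col2a1, Col9a1 and Col9a2, collagens of cartilage, and Col25a1, a transmembrane collagen of neurons.

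The collagen sum was largest in iWAT adipocytes and smallest in BAT. It was 736 ± 132 RPKM (SD, n = 6; 617 to 934) in iWAT adipocytes, 416 ± 79.5 (327 to 526) in those of eWAT and 135 ± 23.6 (104 to 158) in BAT, with no overlap between the 3 tissues. As a share of reads on all rows, collagen genes took 0.576% ± 0.113 in iWAT adipocytes, 0.345% ± 0.0583 in those of eWAT and 0.0924% ± 0.0178 in BAT. These sums are given as a description and were not tested.

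By RPKM, type IV had the largest mean share in each tissue, although fibril-forming collagens exceeded it in eWAT replicates 1 (42.7% against 29.3%) and 3 (37.4% against 35.7%). By reads, which weight long transcripts more, the fibril-forming class was the larger in eWAT adipocytes, at 37.2% ± 6.06 against 34.0% ± 4.66. The type IV share of the collagen RPKM was 57.2% ± 4.01 (SD, n = 6) in BAT, 47.8% ± 1.23 in iWAT adipocytes and 36.6% ± 4.71 in eWAT adipocytes, and the ranges of the 3 tissues did not overlap (51.4% to 63.1%, 45.8% to 49.6% and 29.3% to 41.2%). The fibril-forming share was 33.3% ± 5.70 in eWAT adipocytes (28.4% to 42.7%), above 24.4% ± 1.90 in iWAT adipocytes (21.5% to 26.3%) and 24.8% ± 1.74 in BAT (21.6% to 26.3%). Shares of a sum do not depend on how the libraries are scaled. In the multiplexins, collagens XV and XVIII of basement membrane zones, the share was 11.5% ± 2.19 in iWAT adipocytes, 9.86% ± 1.62 in those of eWAT and 3.79% ± 0.435 in BAT. Col4a1 and Col4a2 ranked first and second in every tissue. The third was Col3a1, with 12.6% ± 3.83 of the collagen sum in eWAT adipocytes, 7.79% ± 1.88 in iWAT adipocytes and 7.94% ± 1.25 in BAT.

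**Figure D1:**
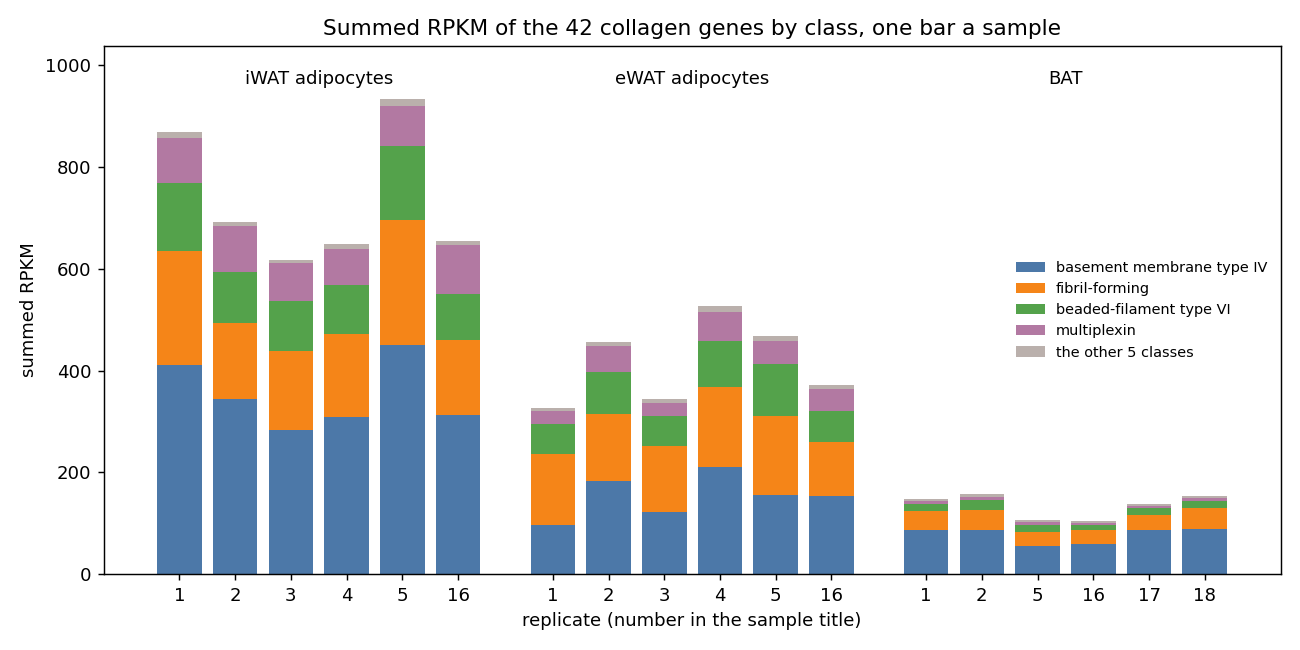
Summed RPKM of the 42 collagen genes in each of the 18 samples, one bar a sample, stacked by collagen class (y axis, RPKM; x axis, replicate number within each tissue). All 6 iWAT bars (617 to 934 RPKM) stand above all eWAT bars (327 to 526), which stand above all BAT bars (104 to 158).

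Within iWAT adipocytes, replicates 1 and 5 stood out. Replicate 5 was the highest of the 6 samples for 11 of the 17 collagen genes at or above 1 RPKM and among the 2 highest for 14, and replicate 1 was among the 2 highest for 13. Col3a1 was at 79.3 and 95.9 RPKM in these samples and at 36.3 to 52.8 in the other 4. The same samples had the highest sums of the endothelial markers (381 and 487 RPKM, against 172 to 304) and of 4 mural cell markers (181 and 234, against 76.8 to 114). Of 6 fibroblast and progenitor markers, Cd34 (19.1 and 22.0, against 6.54 to 13.3), Pdgfra (1.07 and 1.53, against 0.359 to 0.710), Mfap5 and Dpp4 were also highest in these samples. The sum of that list was not (492 and 420, against 439 to 601), because Dpt alone gave 393 to 592 RPKM of it. The part of these cells in the collagen levels was not tested. Within eWAT adipocytes, replicate 4 was the highest for 11 of 18 genes, and within BAT, replicate 2 for 11 of 15.

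The question of how collagens differ between the depots was put to all genes by edgeR's quasi-likelihood test, and a gene was called at an adjusted p under 0.05 (Benjamini-Hochberg over all genes tested). Between iWAT and eWAT adipocytes, 28 of the 42 collagens had a mean count of at least 10 and were tested. Of these, 20 were called, 71.4% of those tested, where 68.6% of all 19623 genes tested were called, so the share called was near the background. The direction was less even: 15 collagens were higher in iWAT adipocytes and 5 lower, where the background shares were 34.1% and 34.5%. The median log2 fold change was 0.58 over the 28 collagens and 0.00 over all genes. At least 2-fold differences were called for 11 collagens, beside 24.9% of all genes.

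Between iWAT adipocytes and BAT, 24 of 28 tested collagens were called, beside 75.3% of all 19745 genes. Of these, 16 were higher in iWAT adipocytes (background 38.1%), 8 were higher in BAT (37.2%), and 21 differed at least 2-fold (37.3%). Without scaling beyond the total count, the split was 19 to 4. Between eWAT adipocytes and BAT, 25 of 29 were called, beside 82.5% of all 20076 genes, with 18 higher in eWAT adipocytes (41.1%) against 7 in BAT (41.4%), and 20 differed at least 2-fold (49.0%). Without scaling the split was 21 to 4. The median log2 fold change of the collagens was 1.56 for iWAT adipocytes against BAT and 0.80 for eWAT adipocytes against BAT.

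**Figure D2:**
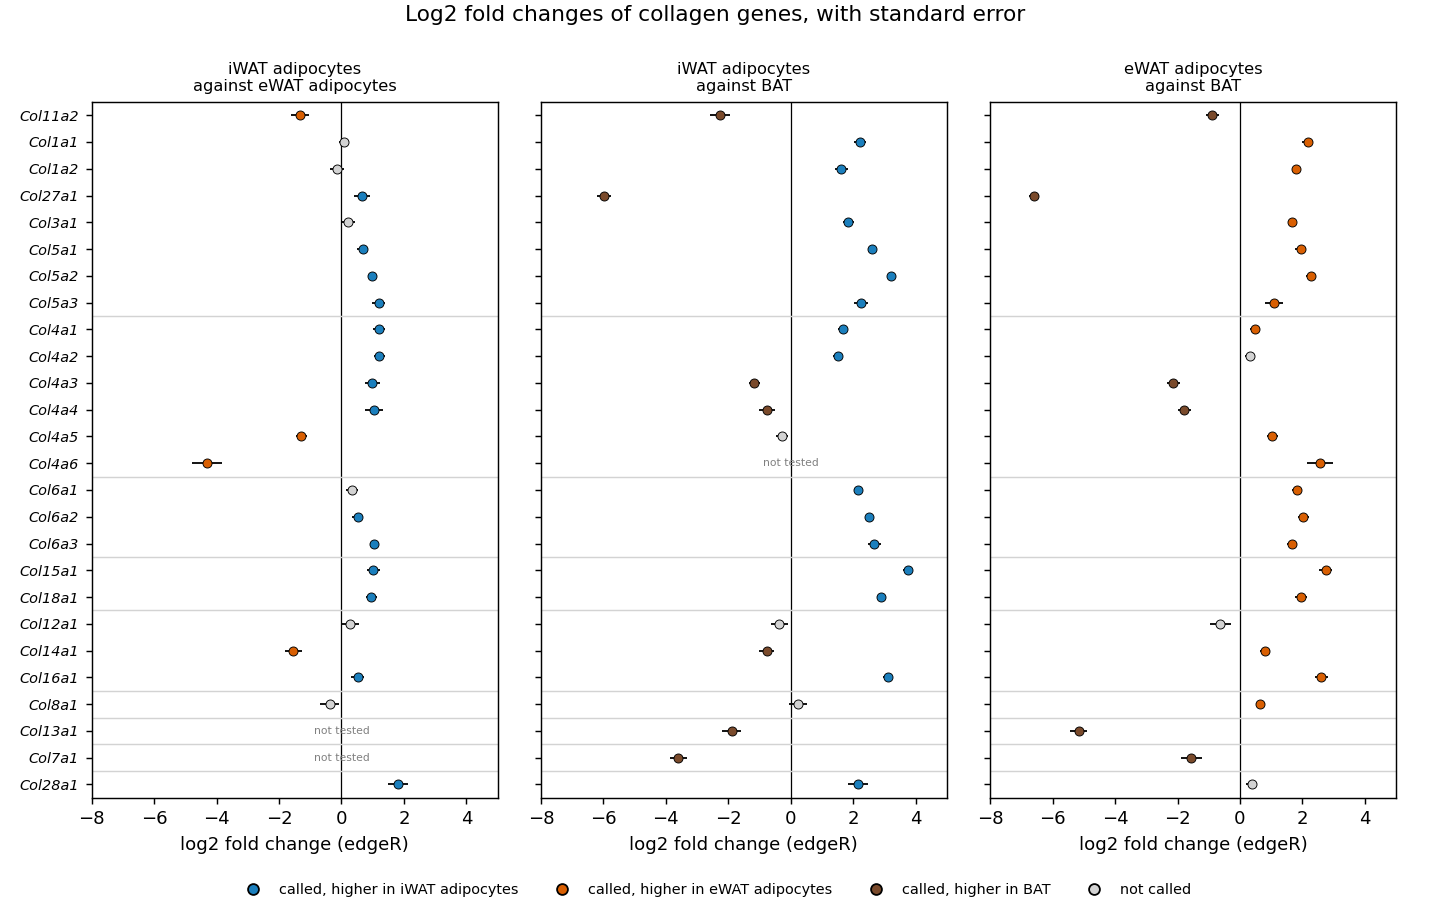
Log2 fold changes from edgeR (x axis) of 26 named collagen genes (rows, grouped by class with grey lines) in the 3 comparisons, with bars for the standard error and colour for the tissue in which a called gene was higher. Most chains of types I, III, V, VI, XV and XVIII lie to the right in both comparisons with BAT, Col27a1 lies far to the left at -5.98 and -6.60, and Col1a1, Col1a2 and Col3a1 lie near 0 between the white depots.

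Of the 8 fibril-forming collagens tested between white depots, the 3 type V chains and Col27a1 were higher in iWAT adipocytes, Col11a2 was higher in eWAT adipocytes, and the chains of types I and III were not called. Col1a1 and Col1a2 encode the chains of type I collagen, the main fibril protein. Col1a1 had a lowest, median and highest value of 21.0, 29.3 and 46.2 RPKM in iWAT adipocytes, 22.5, 31.3 and 36.7 in those of eWAT and 3.10, 4.52 and 6.05 in BAT. The 2 white ranges overlapped almost entirely and lay above every BAT sample. The log2 fold change was 0.08 ± 0.17 (SE) between white depots (adjusted p = 0.71, edgeR), 2.22 ± 0.18 for iWAT adipocytes against BAT (adjusted p = 2.3e-08) and 2.17 ± 0.17 for eWAT adipocytes against BAT (adjusted p = 8.2e-09). Col1a2 behaved likewise, at -0.15 ± 0.22 between white depots and 1.62 ± 0.20 and 1.80 ± 0.11 against BAT. Without iWAT replicates 1 and 5, a choice made after seeing the data, Col1a2 was called lower in iWAT than in eWAT adipocytes, at -0.49. Col3a1, whose homotrimer assembles with type I in the fibrils of soft tissue, was at 36.3, 51.0 and 95.9 RPKM in iWAT adipocytes, 35.6, 53.1 and 60.9 in those of eWAT and 7.56, 10.8 and 13.3 in BAT. Its log2 fold change was 0.21 ± 0.21 between white depots and 1.85 ± 0.19 and 1.67 ± 0.13 against BAT. A missed threshold does not show that types I and III were equal in the white depots.

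Type V collagen, which sits inside type I fibrils and limits their width, was higher in iWAT than in eWAT adipocytes for all 3 chains. Col5a3 was at 32.1, 36.8 and 43.0 RPKM in iWAT adipocytes, 8.78, 18.4 and 22.2 in those of eWAT and 3.35, 4.45 and 9.78 in BAT. Every iWAT sample lay above every eWAT sample, whereas BAT replicate 18, at 9.78 RPKM, exceeded the lowest eWAT sample. The log2 fold change was 1.19 ± 0.21 between white depots (adjusted p = 0.00025, edgeR), 2.26 ± 0.23 for iWAT adipocytes against BAT and 1.09 ± 0.28 for eWAT adipocytes against BAT. In eWAT adipocytes the lowest values of Col5a3, 10.9 and 8.78 RPKM, came from replicates 1 and 3, the samples with the fewest adipocyte marker reads. For Col5a2 the fold changes were 0.99 ± 0.14, 3.22 ± 0.10 and 2.26 ± 0.14 in the same order, and for Col5a1 0.68 ± 0.17, 2.60 ± 0.13 and 1.94 ± 0.18. The iWAT, eWAT and BAT ranges of Col5a1 and Col5a2 did not overlap.

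Type IV collagen is encoded by 6 genes arranged in head-to-head pairs, and the pairs had different tissue patterns. Col4a1 and Col4a2, the chains of the common basement membrane network, lie on chromosome 8 with 22 overlapping bases at their starts (11198423 to 11312826 and 11312805 to 11449287 on mm9). Col4a1 was at 161, 183 and 252 RPKM in iWAT adipocytes, 53.5, 85.9 and 119 in those of eWAT and 29.8, 44.7 and 49.2 in BAT, with no overlap between tissues. Col4a2 was at 121, 144 and 198, at 41.0, 67.7 and 90.6, and at 24.9, 40.0 and 41.7 RPKM. Between white depots the log2 fold changes were 1.20 ± 0.18 for Col4a1 and 1.21 ± 0.18 for Col4a2 (adjusted p = 7.1e-05 for both, edgeR), and for iWAT adipocytes against BAT 1.66 ± 0.13 and 1.50 ± 0.13. For eWAT adipocytes against BAT they were smaller, at 0.48 ± 0.17 (adjusted p = 0.015) and 0.32 ± 0.17 (adjusted p = 0.098, not called). The Col4a1 call was lost without BAT replicate 5 (0.41), and Col4a2 was called without eWAT replicate 1 (0.43). Without eWAT replicates 1 and 3, chosen after seeing the data, Col4a2 was called at 0.53 (adjusted p = 0.0019). The endothelial sums, from cells that also make this network, were highest in iWAT adipocytes by RPKM. By the edgeR fit, Cdh5, Pecam1, Tek and Cldn5 had log2 fold changes of 0.66, 0.62, -0.19 and 1.24 for iWAT adipocytes against BAT. For eWAT adipocytes against BAT they were -1.15, -0.98, -1.78 and -0.31. Tek was not called for iWAT adipocytes against BAT, nor Cldn5 for eWAT adipocytes against BAT. The part of endothelial cells in the Col4a1 and Col4a2 levels was not tested.

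Col4a3 and Col4a4, chains of the specialised network of kidney and lung, lie head to head on chromosome 1 with 71 bases between them. Both were low, with no sample above 0.159 RPKM. Col4a3 had 18 to 31 reads per sample in iWAT adipocytes, 7 to 19 in those of eWAT and 19 to 46 in BAT. The pair was higher in iWAT than in eWAT adipocytes (log2 fold changes 0.99 ± 0.25 and 1.05 ± 0.28) and higher in BAT than in eWAT adipocytes (-2.13 ± 0.22 and -1.79 ± 0.21 for eWAT adipocytes against BAT). For iWAT adipocytes against BAT the values were -1.17 ± 0.18 and -0.77 ± 0.26. Without scaling beyond the total count Col4a3 was at -0.32 and not called and Col4a4 turned to 0.09.

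Col4a5 and Col4a6, encoded head to head on the X chromosome with 1308 bases between them, had the opposite pattern and were higher in eWAT adipocytes. Col4a5 was at 0.304, 0.392 and 0.584 RPKM in iWAT adipocytes, 0.729, 1.04 and 1.42 in those of eWAT and 0.227, 0.322 and 0.451 in BAT. All eWAT samples lay above all others, with log2 fold changes of -1.28 ± 0.19 for iWAT against eWAT adipocytes (adjusted p = 6.3e-05, edgeR) and 1.04 ± 0.18 for eWAT adipocytes against BAT. Col4a6, a chain of smooth muscle and epithelial basement membranes, had 11 to 35 reads per eWAT sample but at most 3 in every iWAT sample and 0 to 7 in BAT. It was at least 6.94-fold higher in eWAT than in iWAT adipocytes, taking 3 reads per library as the floor on TMM-scaled RPKM. Several mesothelial and epithelial markers were likewise highest in eWAT adipocytes. Msln, Upk3b and Krt19 averaged 0.310, 0.637 and 0.239 RPKM in eWAT adipocytes and at most 0.0209 in the other tissues, while Lrrn4 of the same list averaged 8.30 RPKM in BAT and 2.31 and 1.99 in the white depots. Of 4 epithelial markers, Krt14 and Krt5 had no RPKM above 0 in the other tissues and averaged 0.141 and 0.165 in eWAT adipocytes. These means rest largely on eWAT replicate 16, at 0.424 and 0.763 RPKM, against at most 0.134 and 0.122 in the other eWAT samples. Epcam and Cdh1 averaged 0.0845 and 0.0625 RPKM in eWAT adipocytes and 0.00832 and 0.0469 in iWAT adipocytes, with overlapping ranges. The summed list ranged from 0.0393 to 1.58 RPKM in eWAT adipocytes. In contrast, the sum of the 4 mural cell markers was lowest in eWAT adipocytes, with means of 37.3 RPKM there, 130 in iWAT adipocytes and 120 in BAT. Myh11 of that list averaged 0.876, 3.18 and 2.28 RPKM in the same order. The part of any of these cells in Col4a5 and Col4a6 was not tested.

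Of the 4 type VI chains tested between white depots, Col6a2 and Col6a3 were higher in iWAT adipocytes, Col6a6 was higher in eWAT adipocytes and Col6a1 was not called. Col6a1 was at 39.1, 46.1 and 65.0 RPKM in iWAT adipocytes, 28.7, 37.3 and 57.9 in those of eWAT and 5.55, 7.39 and 9.49 in BAT. The white ranges overlapped, and the log2 fold change between them was 0.34 ± 0.18 (adjusted p = 0.11, edgeR), which was called without eWAT replicate 5 (0.49). Against BAT it was 2.14 ± 0.12 for iWAT adipocytes and 1.82 ± 0.17 for eWAT adipocytes. Col6a3, whose chain carries the fragment released as endotrophin, was at 22.1, 25.7 and 39.4 RPKM in iWAT adipocytes and 11.8, 13.4 and 16.2 in eWAT adipocytes with no overlap, and at 1.77, 2.65 and 4.70 in BAT. Its log2 fold changes were 1.04 ± 0.14 between white depots (adjusted p = 2.0e-05), 2.68 ± 0.20 and 1.66 ± 0.17 against BAT. Col6a2 lay between, at 0.52 ± 0.17 between white depots, and was no longer called without iWAT replicates 1 and 5 (0.42) or without eWAT replicates 1 and 3 (0.33). Col6a6, a later described chain with at most 0.663 RPKM in any sample, was higher in eWAT than in iWAT adipocytes (-0.70 ± 0.10 for iWAT against eWAT adipocytes, adjusted p = 6.4e-05).

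Both multiplexins were higher in iWAT than in eWAT adipocytes, and higher in either than in BAT. Col15a1, a proteoglycan that anchors basement membranes to fibrils, was at 48.5, 56.1 and 68.1 RPKM in iWAT adipocytes, 17.4, 30.4 and 39.5 in those of eWAT and 2.06, 2.81 and 3.72 in BAT. No 2 tissues overlapped. The log2 fold changes were 1.02 ± 0.20 between white depots (adjusted p = 0.00061, edgeR), 3.74 ± 0.14 for iWAT adipocytes against BAT (adjusted p = 4.8e-12) and 2.74 ± 0.21 for eWAT adipocytes against BAT (adjusted p = 7.0e-09). Col18a1, the precursor of endostatin, followed at 0.96 ± 0.18, 2.89 ± 0.12 and 1.95 ± 0.19. In eWAT adipocytes the 2 lowest Col15a1 values, 17.4 and 18.2 RPKM, were again those of replicates 1 and 3.

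**Figure D3:**
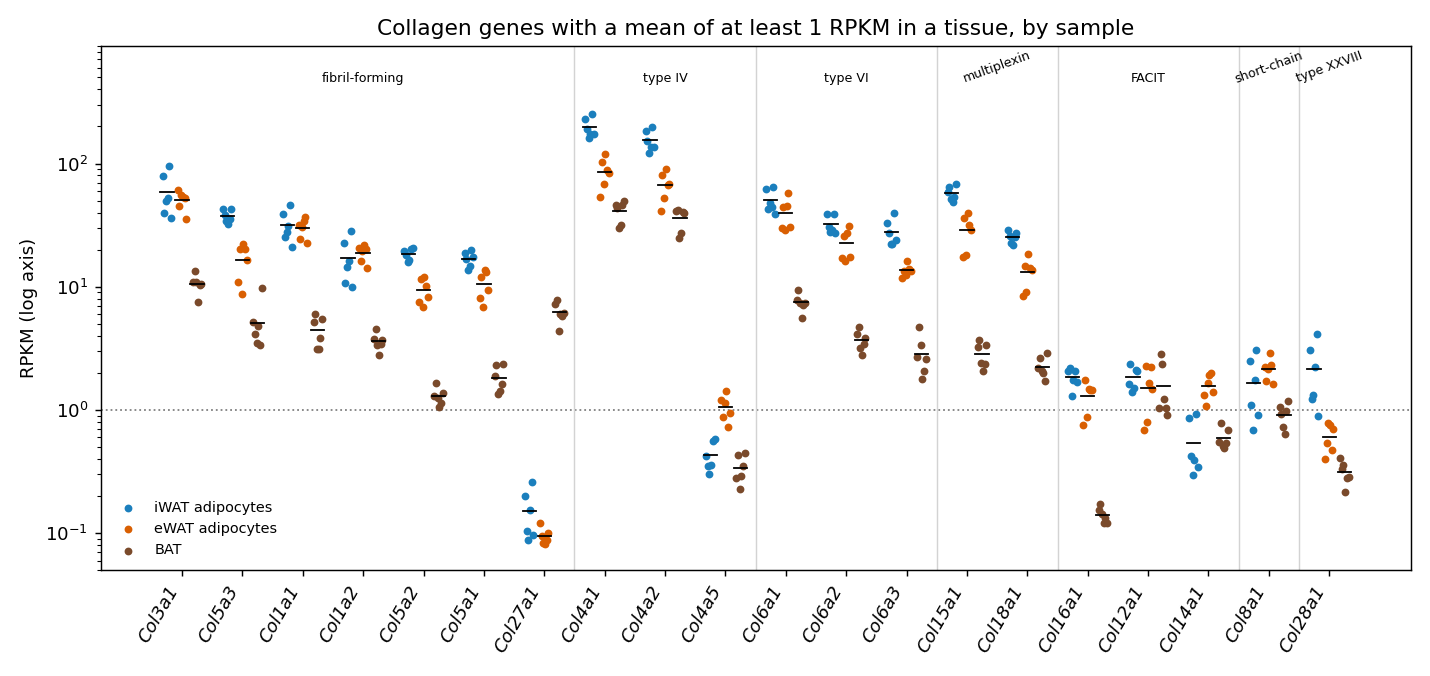
RPKM (log axis) of the 20 collagen genes with a mean of at least 1 RPKM in a tissue (x axis, grouped by class), with one point a sample and a black line for the mean of 6 samples. The BAT points lie below both white groups for most genes, with Col27a1 as the gene whose BAT points (4.37 to 7.82 RPKM) lie far above the white points (at most 0.259).

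Among the collagens that decorate fibrils without forming them (FACITs), there was no common direction. Col14a1, found on dense fibrils, was higher in eWAT adipocytes, at 1.07, 1.53 and 1.98 RPKM, than in iWAT adipocytes, at 0.295, 0.407 and 0.927 (log2 fold change -1.54 ± 0.27, adjusted p = 0.00024, edgeR). Its fold change for iWAT adipocytes against BAT, -0.77 ± 0.24, turned to 0.10 without scaling beyond the total count. Col16a1 had the reverse order, at 1.31, 1.91 and 2.20 RPKM in iWAT adipocytes, 0.751, 1.45 and 1.76 in those of eWAT and 0.120, 0.137 and 0.174 in BAT. Against BAT its fold changes were 3.11 ± 0.14 and 2.61 ± 0.21. Its difference between white depots, 0.52 ± 0.20 (adjusted p = 0.033), was not called without iWAT replicate 2 or 5 or without eWAT replicate 1 or 3, each left out alone (0.40 to 0.50). Col12a1 spread widely within each tissue (0.690 to 2.34 RPKM in white samples and 0.903 to 2.86 in BAT) and was called in none of the 3 comparisons, at 0.28 ± 0.28, -0.36 ± 0.26 and -0.63 ± 0.34 (adjusted p = 0.38, 0.22 and 0.099).

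Of the remaining genes, Col28a1, a collagen of peripheral nerve, was at 0.900, 1.78 and 4.11 RPKM in iWAT adipocytes, 0.401, 0.619 and 0.779 in those of eWAT and 0.215, 0.308 and 0.407 in BAT. Every iWAT sample lay above every other sample, and the fold change between white depots was 1.81 ± 0.33 (adjusted p = 0.00033, edgeR). The 2 highest iWAT values, 4.11 and 3.06 RPKM, came from replicates 5 and 1. For eWAT adipocytes against BAT the difference of 0.37 ± 0.18 was not called (adjusted p = 0.071) but was without eWAT replicate 1 or 5 or BAT replicate 1 (0.44 to 0.47). Col8a1, a short-chain collagen of vessel walls, was higher in eWAT adipocytes than in BAT (0.65 ± 0.15, adjusted p = 0.00073) and overlapped between the white depots (0.684 to 3.07 and 1.63 to 2.89 RPKM). Without iWAT replicates 1 and 5 it was called lower in iWAT than in eWAT adipocytes, at -0.90.

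A small set of collagens ran against the others and was higher in BAT. Col27a1, a fibril-forming collagen known from cartilage, had the largest difference of all collagens. It was at 4.37, 6.03 and 7.82 RPKM in BAT, at 0.0884, 0.129 and 0.259 in iWAT adipocytes and at 0.0811, 0.0916 and 0.121 in eWAT adipocytes. Reads numbered 1392 to 3926 per BAT sample, 35 to 102 per iWAT sample and 28 to 65 per eWAT sample. The log2 fold change was -5.98 ± 0.23 for iWAT adipocytes against BAT (63.2-fold, adjusted p = 4.4e-12, edgeR) and -6.60 ± 0.16 for eWAT adipocytes against BAT (97.1-fold, adjusted p = 5.6e-14). Between white depots it was 0.65 ± 0.25 (adjusted p = 0.03), with overlapping ranges, and that call was lost without iWAT replicate 1 or 5 or without eWAT replicate 3, 4 or 5, each left out alone (0.45 to 0.63). It took 4.64% ± 0.684 of the collagen RPKM in BAT, where it had rank 5, and 0.0198% and 0.0239% in iWAT and eWAT adipocytes. Of 4 cartilage markers, 1 could be tested against BAT. Acan and Matn1 had at most 3 reads in every sample of all tissues, Hapln1 averaged 0.00775 RPKM in BAT, and Lect1 averaged 0.446 in BAT against 0.0510 and 0.0129 in iWAT and eWAT adipocytes. Lect1 was called higher in BAT, 12.7-fold against iWAT adipocytes and at least 13.2-fold against eWAT adipocytes (adjusted p = 6.8e-08 for both, edgeR). The sum of 4 skeletal muscle markers in BAT was 1.47, 15.5, 56.6, 66.9, 78.2 and 98.6 RPKM in replicates 2, 17, 18, 16, 1 and 5, in which Col27a1 was at 7.82, 5.79, 6.08, 5.99, 7.27 and 4.37. The part of cartilage and muscle RNA in the Col27a1 level was not tested.

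The gene for miR-455 lies in an intron of Col27a1 on the same strand (chr4:62917885-62917966 within chr4:62875038-62996025, mm9, GENCODE vM1). Its mature arms are shown because they share the host of the most BAT-biased collagen. The sequences are from RefSeq (GRCm38.p6), capitals mark the seed (bases 2 to 8), and the miRNA itself was not analysed here.
mmu-miR-455-5p: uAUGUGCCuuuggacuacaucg
mmu-miR-455-3p: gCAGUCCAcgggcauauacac

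Other collagens higher in BAT were far less abundant. Col13a1, a transmembrane collagen of neuromuscular junctions, was at 0.195, 0.296 and 0.343 RPKM in BAT and at 0.0347, 0.109 and 0.244 in iWAT adipocytes, with a log2 fold change of -1.89 ± 0.30 for iWAT adipocytes against BAT (adjusted p = 3.6e-05, edgeR). In eWAT adipocytes it had at most 3 reads in every sample, so it was at least 22.3-fold higher in BAT. It was also at least 4.87-fold higher in iWAT than in eWAT adipocytes, taking the same floor. Col7a1, the anchoring fibril collagen of skin, had 14 to 30 reads per BAT sample and 1 to 4 per iWAT sample (log2 fold change -3.60 ± 0.28). In eWAT adipocytes Col7a1 had 4 to 24 reads per sample, and its RPKM range overlapped that of BAT. The fold change for eWAT adipocytes against BAT was -1.56 ± 0.33. Without scaling beyond the total count it came to -0.66 and was not called. Col11a2, a chain of cartilage fibrils, had 5 to 20 reads per iWAT sample, 20 to 28 per eWAT sample and 17 to 46 per BAT sample. It was lower in iWAT adipocytes than in those of eWAT (-1.33 ± 0.30, adjusted p = 0.0017, edgeR) and than in BAT (-2.25 ± 0.32). Its difference from eWAT adipocytes, -0.89 ± 0.21, came to 0.01 without scaling beyond the total count. Col20a1 was called higher in BAT against both white depots, at -1.12 ± 0.16 and -1.16 ± 0.17. Its RPKM ranges overlapped, at 0.225 to 0.334 in iWAT adipocytes, 0.2 to 0.312 in those of eWAT and 0.306 to 0.486 in BAT. How far these calls depend on the scaling is not given here. Col19a1 had 5 to 19 reads per BAT sample and at most 3 in every white sample, which makes it at least 4.48-fold higher in BAT than in iWAT adipocytes and at least 4.68-fold higher than in eWAT adipocytes. Col24a1 had 4 to 14 reads per eWAT sample and at most 2 per iWAT sample, at least 2.34-fold higher in eWAT adipocytes.

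Chain ratios compare genes within a sample, so library scaling drops out. Row lengths, by which RPKM divides, do not drop out (4380 bases for Col6a1 and 8467 for Col6a2, for example). A ratio can thus be compared between tissues, but its size does not measure the balance of chains. For 8 pairs of partner or related chains, the mean log2 ratio of RPKM was compared between tissues by a two-sided exact permutation test, 24 tests in all, for which 0.00216 is the smallest p that 6 against 6 samples allow. Of these, 19 passed an adjusted p of 0.05. The most constant ratio was Col4a1/Col4a2, at 1.28 ± 0.0252 (SD, n = 6) in iWAT adipocytes and 1.29 ± 0.0295 in eWAT adipocytes, although the level of each gene differed more than 2-fold between these depots. The log2 ratios differed by -0.01 (exact permutation p = 0.591, adjusted p = 0.617). In BAT the ratio was 1.15 ± 0.0666, lower than in iWAT adipocytes (exact permutation p = 0.00216, adjusted p = 0.0040).

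The ratio of the type I chains differed more between tissues. Col1a1/Col1a2 was 1.94 ± 0.273 in iWAT adipocytes (1.64 to 2.38), 1.60 ± 0.105 in those of eWAT (1.51 to 1.80) and 1.23 ± 0.213 in BAT (0.915 to 1.49). All 3 tissues differed from each other (exact permutation adjusted p = 0.0144 between white depots and 0.0040 for each against BAT). Each type I trimer usually holds more Col1a1 than Col1a2 chains, but these ratios cannot be set against that. They rest on rows of 6733 bases for Col1a1 and 12146 for Col1a2, whose coding lengths were 4359 and 4116 bases. Per row length, 1 BAT sample had more Col1a2 than Col1a1. In reads, every BAT sample had more Col1a2 (1508 against 1150 in replicate 1), but so did every eWAT sample and iWAT replicates 1 and 5. Col3a1/Col1a1 was higher in BAT, at 2.48 ± 0.580, than in eWAT adipocytes, at 1.69 ± 0.187 (exact permutation adjusted p = 0.0040). Col5a1/Col5a2 went from 0.914 ± 0.0534 in iWAT adipocytes to 1.12 ± 0.109 in those of eWAT and 1.41 ± 0.200 in BAT, and Col6a1/Col6a2 took the same order, at 1.56 ± 0.122, 1.76 ± 0.0707 and 2.04 ± 0.146. Col5a3/Col5a1 was lower in eWAT adipocytes, at 1.54 ± 0.188, than in iWAT adipocytes, at 2.24 ± 0.248, and BAT, at 2.77 ± 0.866 (exact permutation adjusted p = 0.0040 against each). Col6a3/Col6a1 was 0.558 ± 0.0705 in iWAT adipocytes, 0.362 ± 0.0788 in those of eWAT and 0.376 ± 0.0807 in BAT, and the latter 2 were not told apart (exact permutation adjusted p = 0.747). Col15a1/Col18a1 was 2.27 ± 0.192 and 2.16 ± 0.154 in the white depots (exact permutation adjusted p = 0.361) and 1.27 ± 0.173 in BAT (exact permutation adjusted p = 0.0040 against each).

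**Figure D4:**
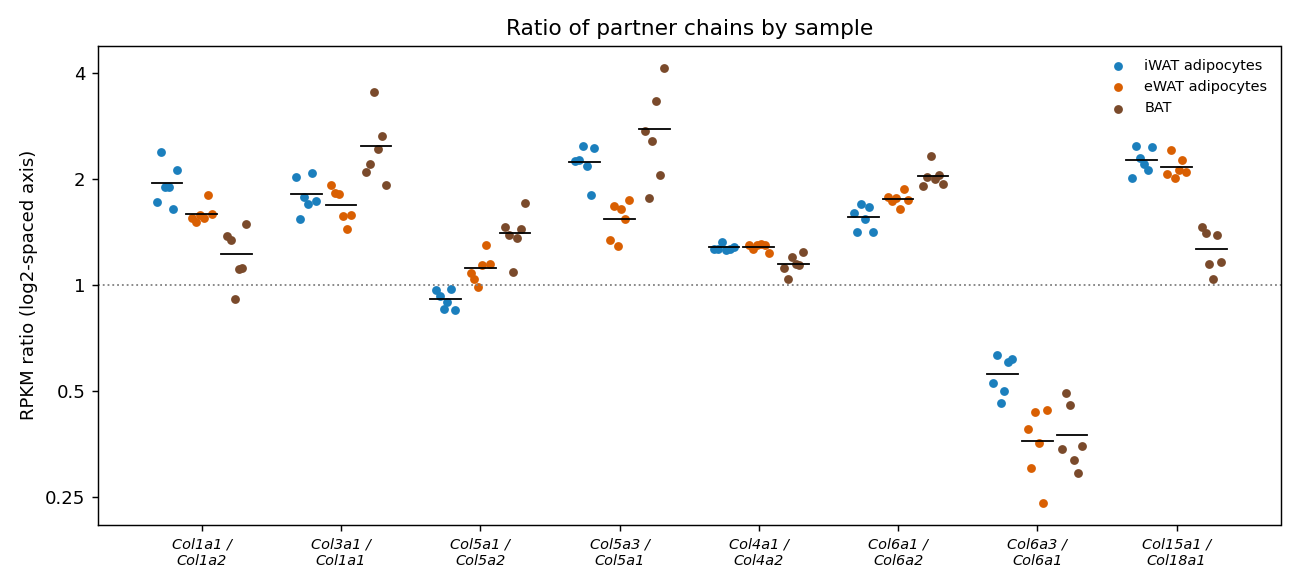
RPKM ratios of 8 pairs of chains (x axis) on a log2-spaced axis, with one point a sample, a black line for the mean of 6 samples and colours for the 3 tissues. The Col4a1/Col4a2 points of the white depots lie in a narrow band near 1.28, whereas the Col15a1/Col18a1 points of BAT (1.04 to 1.46) lie below all white points.

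Genes that build, export and bind collagen were examined as a list of 49, of which 48 were in the files and 44 were tested in each comparison. Between white depots 22 were higher in iWAT adipocytes and 8 lower (median log2 fold change 0.34). For iWAT adipocytes against BAT the numbers were 32 and 4 (median 1.15), and for eWAT adipocytes against BAT 29 and 9 (median 0.72), beside the background shares given above. In hydroxylation, which stabilises the helix, P4hb, a subunit of prolyl 4-hydroxylase, was at 103 to 114 RPKM in iWAT adipocytes, 125 to 152 in those of eWAT and 12.5 to 17.9 in BAT, with no overlap (-0.36 ± 0.06, 2.17 ± 0.07 and 2.56 ± 0.09).

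The glycosylation pair was divided. Glt25d1, a collagen galactosyltransferase, was higher in eWAT than in iWAT adipocytes (-1.13 ± 0.10) and Glt25d2 was lower (1.67 ± 0.31), each as the log2 fold change of iWAT against eWAT adipocytes. Serpinh1, the collagen chaperone of the endoplasmic reticulum, was at 130 to 196 RPKM in iWAT adipocytes, 49.7 to 124 in those of eWAT and 70.0 to 101 in BAT. It was the only one of 6 chaperone and export genes called higher in BAT than in eWAT adipocytes (-0.61 ± 0.22). The size of this Serpinh1 difference depends on the scaling, since the mean RPKM was 89.6 in BAT and 88.2 in eWAT adipocytes. Among genes of propeptide removal, Adamts14 was higher in eWAT than in iWAT adipocytes (-2.08 ± 0.26) while Adamts2 was lower (0.94 ± 0.17). Pcolce2, an enhancer of propeptide cleavage, was higher in iWAT adipocytes than in BAT by 3.38 ± 0.15, and Pcolce was lower in both white depots than in BAT by the fit (-0.41 ± 0.12 and -1.59 ± 0.14). The order of Pcolce for iWAT adipocytes and BAT depends on the scaling, since its mean RPKM was 20.4 and 17.8.

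Of the collagen receptors, Mrc2, an endocytic receptor for collagen, was highest in iWAT adipocytes, at 14.9 to 26.7 RPKM, against 5.14 to 13.7 in those of eWAT and 0.764 to 1.99 in BAT. Its log2 fold change for iWAT adipocytes against BAT was 3.46 ± 0.20 (adjusted p = 2.9e-10, edgeR). Lair1, an inhibitory collagen receptor of leukocytes, was at 7.70 to 13.7 RPKM in eWAT adipocytes, 1.12 to 1.67 in iWAT adipocytes and 0.0692 to 0.134 in BAT, the order of the macrophage markers, whose part was not tested. Fn1, which encodes the fibronectin that fibrils assemble on, was likewise highest in eWAT adipocytes (log2 fold change 3.03 ± 0.15 against BAT and -1.24 ± 0.14 for iWAT against eWAT adipocytes). Sparc, which binds collagen, was at 753 to 883 RPKM in iWAT adipocytes, 175 to 426 in those of eWAT and 101 to 140 in BAT, the highest level of the list in each tissue.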

How the data were processed

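RNA-seq libraries of iWAT adipocytes, eWAT adipocytes and BAT (6 each) were analysed. The authors trimmed and aligned reads with cutadapt 1.16 and HISAT2 2.1.0 (tools named in the submitters' notes) to mm9. The deposited read count of each row is a whole number, and the deposited RPKM follows from count, row length and 1 total per sample. The counting program, strand setting and handling of multiply mapped reads are not given in the sources used here. Members and lists were chosen with earlier results of these data known.

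For a symbol with several rows, the row with a gene identifier and the highest mean RPKM was used. Counts were compared with edgeR 4.0.16 (glmQLFit, glmQLFTest, TMM, two-sided) in R 4.3.3 on the 12 samples of each comparison, for genes whose count averaged 10 or more, and p-values were adjusted over all genes tested. The test was checked on simulated data. Chain ratios were tested by exact permutation with SciPy. Alternatives used DESeq2 1.42.0, limma 3.58.1, other scalings, filters, rows, lane and left-out samples.

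Named were collagens with a mean of at least 1 RPKM in a tissue, the 10 largest called changes per comparison, the chains of the ratios, the 3 largest called pathway changes per comparison and cell type markers, of which 1 list is not reported here. Other pathway genes, Col6a6 and Col20a1 were named after their values were seen. The floor, 3 reads per library, covers counting error only. Where nothing says that samples came from separate mice, p-values measure the spread between samples. Exons of other genes covered at most 6.07% of a collagen's exon bases (Col9a3).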

Additional observations from a re-analysis of the deposited data

Results flagged for a closer look

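In 5 of 78 groups of 6 samples over the named collagen genes, 1 sample lay far from the others, where chance alone gives about 3.9. Col5a3 in BAT was at 9.78 RPKM in replicate 18, against 3.35 to 5.19 in the others, on 2270 reads. Col13a1 in BAT was at 0.195 RPKM in replicate 5 (22 reads), against 0.293 to 0.343. Col4a3 in BAT was at 0.0831 RPKM in replicate 16 (19 reads), against 0.116 to 0.131. Col11a2 in iWAT adipocytes was at 0.0964 RPKM in replicate 5 (20 reads), against 0.0233 to 0.0443, and Col4a4 in eWAT adipocytes at 0.0285 RPKM in replicate 5 (9 reads), against 0.0480 to 0.0584.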

How the results depend on the processing

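Counts of called collagens stayed within 1.5 times of those reported under each alternative run, except that 20 rather than 11 differed at least 2-fold between white depots when genes with at least 1 read in a sample were tested. Leaving out 1 sample at a time gave 17 to 21 calls between white depots (9 to 14 of at least 2-fold), 23 to 25 for iWAT adipocytes against BAT (20 to 22) and 24 to 27 for eWAT adipocytes against BAT (18 to 21). Without scaling beyond the total count, Col14a1, Col4a4 and Col4a5 turned to 0.10, 0.09 and 0.58 for iWAT adipocytes against BAT and Col11a2 to 0.01 for eWAT adipocytes against BAT. In BAT, 27 collagens reached a mean of 0.1 RPKM and 6 a mean of 5 RPKM. All 24 ratio tests kept their side of the threshold with rows summed and with each sample left out. All 20 calls between white depots kept their direction within lane 1 (2 iWAT and 4 eWAT samples) and lane 2 (4 and 2). With lane as a covariate Col16a1 (0.54, adjusted p = 0.051) and Col27a1 (0.59, adjusted p = 0.062) lost their calls between white depots and Col6a1 gained one (0.49, adjusted p = 0.032), all by edgeR.

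Same-numbered samples did not consistently deviate together: correlations of their deviations ran from -0.233 to 0.372 between white depots. This does not show that they came from different mice, because differences particular to a depot can hide a shared mouse. With the number as a replicate block, calls were 20, 22 and 26, with 12, 21 and 20 of at least 2-fold. Under the block Col14a1 (-0.61) and Col4a4 (-0.49) lost their calls for iWAT adipocytes against BAT and Col12a1 was called for eWAT adipocytes against BAT (-0.79), and the cause was not tested. Col4a1 lost its call for eWAT adipocytes against BAT under upper-quartile scaling (0.35). Low genes rest on few reads, and BAT could not be separated from its lanes or isolation.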
